A study of Mus musculus with 12 samples.

Results

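The tanycyte genes described here are Rax, Gpr50, Dio2, Crym, Vim, Nes, Rarres2, Mia and Col23a1. They were taken by symbol from the count tables, and all 9 were found among the 55809 gene symbols listed. Tanycytes are radial glial cells that line the floor and lower walls of the third ventricle, a fluid-filled space of the brain, and send long processes into the hypothalamus. In this tissue they are known for sensing metabolic signals, for passing hormones between blood, cerebrospinal fluid and neurons, for controlling local thyroid hormone, and for keeping some features of neural stem cells. Of the genes listed, Rax is the one most closely tied to tanycytes. Vim, Nes and Rarres2 are also known from ciliated ependymal cells, blood vessel cells or other glia, so that a count of these cannot be assigned to a cell type.

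There were 12 RNA sequencing libraries of sorted mouse cells, 3 in each of 4 groups. The first pair was sorted from hypothalami of untreated mice 4 weeks old that carried Mc4r-Cre and Ai14 (Mc4r-Cre; Ai14). In these mice a Cre recombinase under control of the Mc4r gene switches on the Ai14 reporter, so a cell and its progeny stay labelled with the red protein TOM once Cre has acted. TOM positive and TOM negative cells were sorted. The second pair came from the paraventricular nucleus (PVH), which borders the third ventricle, of Otp fl/fl; Ai14 mice 26 weeks old. The PVH was dissected 12 weeks after injection of a virus, AAV-Cre or AAV-GFP. Both of these groups carried the floxed Otp alleles and the Ai14 reporter, and they differed in the sorted label as well as in the virus, since AAV-Cre cells were taken for TOM and AAV-GFP cells for GFP. Neither the promoter nor the serotype of the viruses is named, and libraries are not tied to animals. The p-values therefore measure the spread between libraries, which may be technical. The study's design text asks what regulates Mc4r and what changes in PVH neurons after AAV-Cre.

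Library totals ran from 13506018 to 27827853 counts. Genes with a count numbered 14747 to 16988 in the AAV-Cre libraries and 20778 to 23902 in the AAV-GFP libraries, and 16011 to 18160 in TOM positive against 18453 to 19023 in TOM negative libraries. Fewer genes were thus detected after AAV-Cre, and the part of this in the zeros given below was not tested. Otp, the floxed gene, had 12, 9 and 10 counts with AAV-Cre, against 91, 102 and 38 with AAV-GFP (edgeR log2 fold change -2.84 ± 0.874, SE, adjusted p = 0.134). Without TMM scaling factors the median log2 fold change of all genes rose by 0.261 in the TOM comparison and by 0.156 in the AAV comparison. The calls in the TOM comparison then split into 2204 higher and 1532 lower genes, against 1589 higher and 2046 lower with scaling.

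The label of the gene set was checked on Rax, whose counts ranged from 19 to 85 in the TOM positive and TOM negative libraries and from 12 to 20 in the AAV-GFP libraries. All 3 AAV-Cre libraries held 0 counts of Rax. The other 8 genes were each counted in at least 5 of the 12 libraries. Together the 9 genes made up 36.3 to 47.6 CPM (counts scaled to the library total) in TOM positive, 70.2 to 98.7 in TOM negative, 44.9 to 56.9 in AAV-Cre and 401 to 675 in AAV-GFP libraries, before scaling. The AAV-GFP libraries stood above all others, and most of their sum was Rarres2. The sorted samples are bulk RNA, in which fewer cells of a type and less RNA per cell cannot be told apart.

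Levels per length are given in TPM, the share of length-corrected counts, computed from the counts and the exon lengths in the files. Rarres2 had the highest mean TPM of the 9 genes in every group, at 19.6 ± 6.03 (SD, n = 3) in TOM positive, 44.6 ± 6.21 in TOM negative, 17.9 ± 5.5 in AAV-Cre and 446 ± 202 in AAV-GFP cells. Vim followed in 3 of the groups, with a mean of 11.2 ± 5.32 TPM in TOM negative, 13.8 ± 4.14 in AAV-Cre and 44.8 ± 13.8 in AAV-GFP cells. In TOM positive cells Col23a1 came next to Rarres2 at 7.08 ± 2.77 TPM, followed by Vim at 4.43 ± 2.43, and these neighbours overlapped. In AAV-Cre cells Vim and Rarres2 also overlapped. The remaining genes lay at or below 5.05 TPM on average, apart from Mia and Col23a1 in AAV-GFP cells, with means of 14.8 ± 18.1 and 13.3 ± 17.8 TPM, each raised by replicate 2. Among these lower genes, Col23a1 in TOM negative cells (3.2 to 5.29 TPM) lay above Rax, the next in order (0.362 to 1.68 TPM), without overlap. So did Nes over Gpr50 in AAV-GFP cells (2.79 to 8.22 against 0 to 1.89 TPM) and Rax over Mia in TOM positive cells (0.401 to 1.61 against 0 to 0.248 TPM). The other neighbours among them overlapped.

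**Figure D1:**
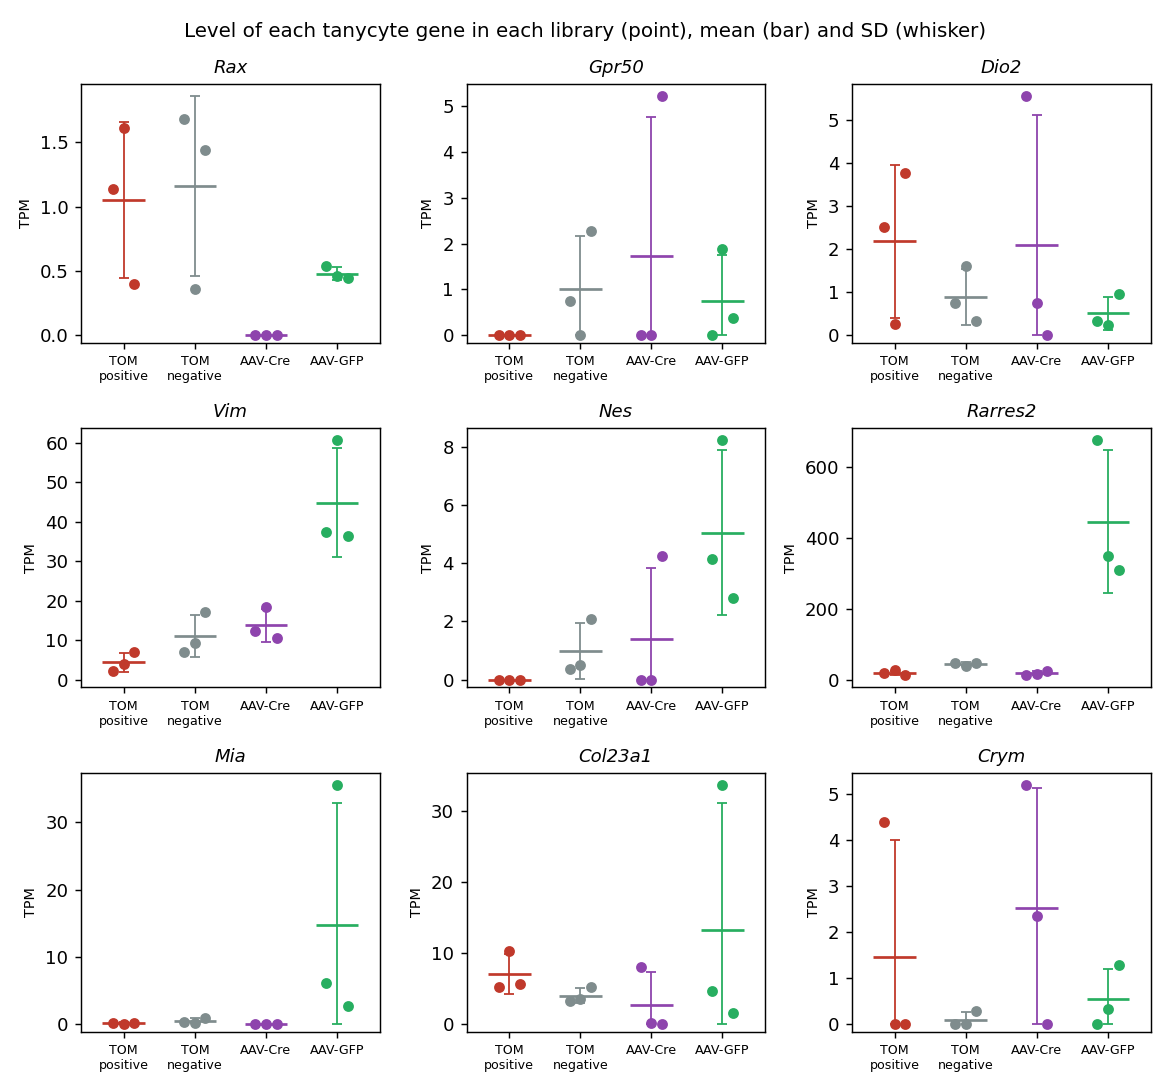
Level of each of the 9 genes in TPM (vertical axis, linear, a separate range for each gene) in the 12 libraries. Points are libraries, horizontal bars are means and whiskers are the SD over 3 libraries, stopped at 0. Rarres2 and Vim are highest in the AAV-GFP libraries, Rax is at 0 in all 3 AAV-Cre libraries, and Nes and Gpr50 are at 0 in all 3 TOM positive libraries.

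In the comparison of TOM positive with TOM negative cells, Rarres2, Vim and Nes were lower in TOM positive cells. Rarres2 was 3.52-fold and Vim 3.8-fold lower, and Nes, with no count in TOM positive cells, at least 67.5-fold lower. Of the 9 genes 6 had enough counts to be tested. By edgeR's quasi-likelihood test 3 of these passed an adjusted p of 0.05, all in the lower direction. Nes entered the test only through the TOM negative libraries and so had to differ. Among all 15228 genes tested, 23.9% passed, 13.4% lower and 10.4% higher in TOM positive cells. All TOM positive libraries lay below all TOM negative libraries for 3 of the 6 tested members and for 25.6% of all genes. The median log2 fold change was -1.29 over the 6 members and -0.024 over all genes. Lower calls are common in this comparison, and nothing particular to tanycyte genes is read from their count.

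After AAV-Cre, Rarres2 and Vim were again the genes that passed, 30.8-fold and 4.04-fold lower than after AAV-GFP. Here 8 of the 9 genes were tested, all but Gpr50. Rax and Mia entered only through the AAV-GFP libraries. Of all 15408 genes tested, 2.6% passed, 1.97% lower and 0.63% higher after AAV-Cre. The AAV-Cre libraries were all below the AAV-GFP libraries for 5 tested members, Rarres2, Vim, Nes, Mia and Rax, and for 18.6% of all genes. Of these members, Rax and Mia had 0 counts in every AAV-Cre library and so had to lie below. Nothing particular to tanycyte genes is read from this count. The median log2 fold change was -2.33 over the 8 members and -0.16 over all genes. Both medians over members are the same with genes at 0 in a group set to the bound of their fold. The 2 comparisons differ in age, tissue, genotype and treatment, so their values stand side by side with no test between them.

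**Figure D2:**
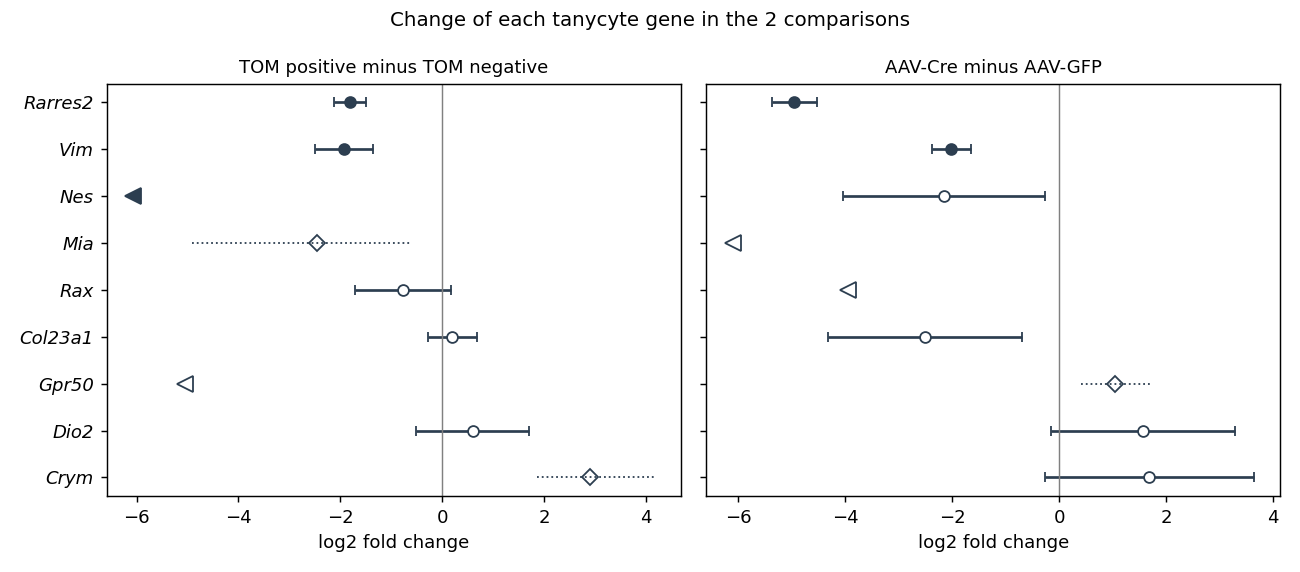
Log2 fold change (horizontal axis) of each gene in the TOM comparison (left) and the AAV comparison (right). Circles are fitted values with SE bars, filled where the adjusted p is below 0.05, triangles mark bounds for genes at 0 in every library of the lower group, and diamonds with dotted lines are ratios of summed counts with 95% counting intervals for genes that were not tested. Rarres2 and Vim lie left of 0 with filled circles in both panels, and Nes has a filled triangle in the left panel.

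The intermediate filament genes Vim and Nes encode vimentin and nestin, cytoskeletal proteins of radial glia, tanycytes and other immature or vascular cells. Vim lies at chr2:13578738-13587637 on the plus strand and Nes at chr3:87878385-87887758 on the plus strand in the GENCODE vM30 annotation of the files. Because both were lower in TOM positive cells, the 250 bases before their RefSeq starts are shown (build GRCm38.p6, plus strand, Vim at chr2:13574061-13574310 and Nes at chr3:87970843-87971092), with matches to 5 short motifs in capitals. The motifs, searched on both strands, were the TATA box TATAAA, the GC box GGGCGG, the homeodomain core TAATTA, the SOX core ACAAAG and the E-box CAGCTG.
Vim: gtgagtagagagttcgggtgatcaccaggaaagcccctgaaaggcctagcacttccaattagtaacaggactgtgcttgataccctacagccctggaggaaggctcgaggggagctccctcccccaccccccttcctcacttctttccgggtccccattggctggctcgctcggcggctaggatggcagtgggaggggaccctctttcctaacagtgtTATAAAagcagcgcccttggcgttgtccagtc
Nes: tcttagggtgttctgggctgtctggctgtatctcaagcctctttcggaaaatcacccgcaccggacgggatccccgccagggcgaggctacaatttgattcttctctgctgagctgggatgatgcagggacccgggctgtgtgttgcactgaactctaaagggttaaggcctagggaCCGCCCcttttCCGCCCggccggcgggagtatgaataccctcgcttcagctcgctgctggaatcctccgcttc
In the Vim stretch the TATA box begins 32 bases before the start, and 12.4% of 32851 promoters of this length hold one. The Nes stretch has GC boxes beginning 73 and 62 bases before the start, as the reverse complement, and 32.7% of promoters hold that motif. The homeodomain core (4.84% of promoters), the SOX core (16.5%) and the E-box (13%) were not matched in either stretch. A match describes these letters and shows neither binding nor a cause. The RefSeq table held promoters for 6 of the 9 genes.

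Vim was present in every library. Scaled with TMM, CPM of Vim were 2.77, 5.18 and 9.02 in the TOM positive libraries, against 14.5, 19.1 and 31 in the TOM negative libraries (replicates 1, 2 and 3 in this order, here and throughout). Every TOM positive library lay below every TOM negative library, by means of 5.66 ± 3.15 against 21.5 ± 8.49 CPM (SD, n = 3). The edgeR log2 fold change was -1.93 ± 0.562 (SE, adjusted p = 0.0452). Of 6 fits with a library left out, 1 passed, that without TOM positive replicate 3, and the adjusted p reached 0.14 in the others. The call was also lost without scaling factors (adjusted p = 0.072), without the filter on low counts (0.0547) and in a test against a 1.5-fold change (0.0866), with the same direction each time.

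In PVH cells Vim stood at 16.3, 26 and 13.9 CPM with AAV-Cre, against 58.3, 93.9 and 75.2 CPM with AAV-GFP. The groups did not overlap, with means of 18.8 ± 6.41 and 75.8 ± 17.8 CPM (SD, n = 3). The log2 fold change was -2.01 ± 0.362 (SE), and edgeR's adjusted p was 0.038. None of the 6 fits with a library left out passed, at adjusted p from 0.06 to 0.161, nor did the test against a 1.5-fold change (0.0613), although the direction held in each.

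Nes was counted in fewer libraries than Vim. TOM positive libraries held 0, 0 and 0 counts and TOM negative libraries 20, 29 and 111, or 1.01, 1.4 and 5.09 CPM. Nestin mRNA was thus counted in TOM negative libraries alone, with replicate 3 highest. Against a floor of 3 counts over the group, Nes was at least 67.5-fold lower in TOM positive cells (edgeR adjusted p = 0.0162). The bound was 31.8-fold without TOM negative replicate 3, and 42.4-fold and 41.8-fold without TOM positive replicates 2 and 3. The call was lost without TOM negative replicate 2 (adjusted p = 0.0634) or 3 (0.0528).

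In the PVH, Nes had 0, 0 and 110 counts with AAV-Cre, against 169, 237 and 111 with AAV-GFP. AAV-Cre replicate 3, at 7.56 CPM, was close to the lowest AAV-GFP library at 7.81 CPM, while the other two AAV-Cre libraries had none. The log2 fold change of -2.16 ± 1.89 (SE) did not pass (edgeR adjusted p = 0.608). Without AAV-Cre replicate 3, Nes was at least 112-fold lower and passed (adjusted p = 0.046), so this library decides the value. In that fit Nes was counted in the AAV-GFP libraries alone and so had to differ.

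Rarres2 encodes chemerin, a secreted chemoattractant and adipokine that is induced by retinoids, and it gave the clearest differences of the 9 genes. It lies at chr6:48546630-48549723 on the minus strand. TOM positive libraries had 12.4, 19 and 10.5 CPM and TOM negative libraries 55.7, 43.2 and 48.8 CPM. The 2 groups were well apart, at means of 14 ± 4.48 and 49.2 ± 6.26 CPM (SD, n = 3), with a log2 fold change of -1.81 ± 0.312 (SE, edgeR adjusted p = 0.00728). Rarres2 passed under all 16 alternative settings of this comparison, with log2 fold changes from -2.11 to -1.55 and an adjusted p of at most 0.0329.

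After AAV-Cre, Rarres2 stood at 9.54, 13.6 and 17.6 CPM, and after AAV-GFP at 592, 303 and 359 CPM. The AAV-Cre levels were near those of TOM positive cells, and the AAV-GFP levels were the highest of Rarres2 in any library. The means were 13.6 ± 4.03 and 418 ± 153 CPM (SD, n = 3), a log2 fold change of -4.94 ± 0.422 (SE, edgeR adjusted p = 0.0179). The call was lost without AAV-GFP replicate 1 (adjusted p = 0.068) or 3 (0.104), with log2 fold changes between -5.18 and -4.55 over all alternatives. Exons of Lrrc61 on the opposite strand overlap 33.6% of the Rarres2 exon bases, 892 bases, and reads there cannot be assigned by strand with the counting used. Lrrc61 itself had 6403 counts over the 12 libraries.

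**Figure D3:**
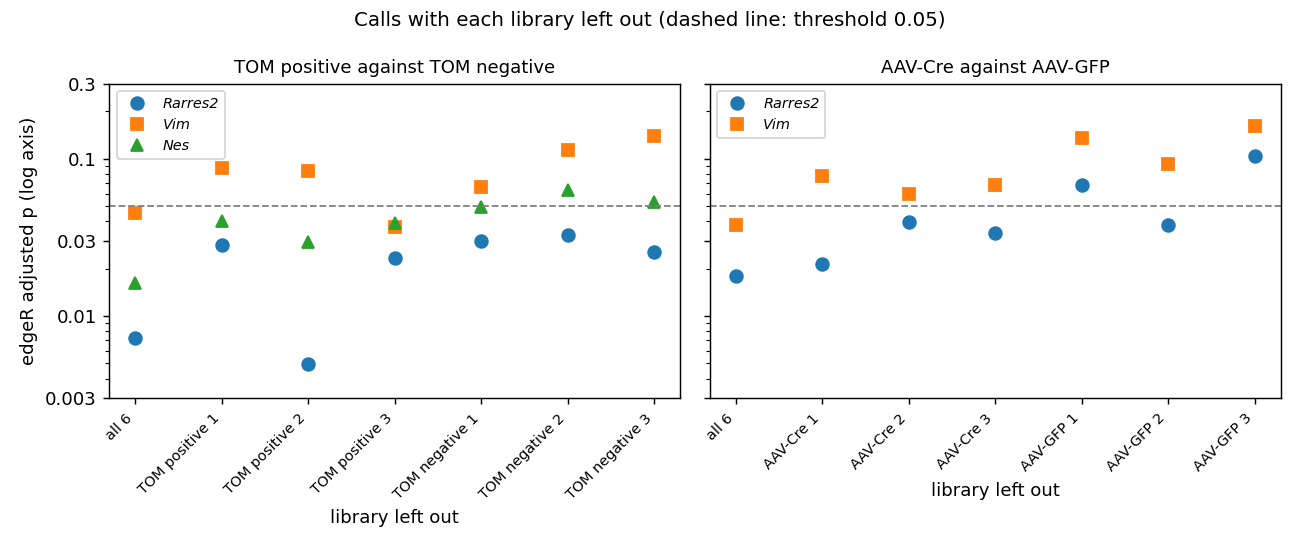
Adjusted p of edgeR's test (vertical axis, log scale) for the genes that passed, with all 6 libraries and with each library left out (horizontal axis), in the TOM comparison (left) and the AAV comparison (right). Each symbol is 1 fit and the dashed line marks 0.05. Rarres2 stays below the line in all 6 left-out fits on the left and in 4 of 6 on the right, whereas Vim is below it in 1 fit on the left and in 0 on the right.

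Mia, which encodes a small secreted protein first described in melanoma, lies at chr7:26879167-26880582 on the minus strand. Exons of Gm21983 on the same strand overlap 41.2% of the Mia exon bases, 410 bases, and Gm21983 had 0 counts in all libraries. The effect of this overlap on the counts of Mia was not tested. Mia was near 0 in the TOM experiment, with counts of 1, 0 and 2 in TOM positive and 3, 2 and 8 in TOM negative libraries. This was too few to be tested. The ratio of summed counts was 5.48 in favour of TOM negative cells (exact 95% interval 1.51 to 30, counting error only). All 3 AAV-Cre libraries held 0 counts, whereas the AAV-GFP libraries held 39, 159 and 17. Mia was at least 68.6-fold lower after AAV-Cre but did not pass with edgeR (adjusted p = 0.0639). The bound was 25.2-fold without AAV-GFP replicate 2, which held most of the counts, and 44.3-fold without AAV-Cre replicate 1. The gene passed without the filter on low counts (adjusted p = 0.025) and with DESeq2 (4.05e-05), within a range up to 0.289 over the 16 settings. With counts in the AAV-GFP libraries alone of this pair, Mia could only come out lower after AAV-Cre.

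Rax encodes a homeodomain transcription factor that tanycytes need to keep their identity, and its gene lies on chromosome 18. The counts were 34, 75 and 19 in TOM positive and 85, 19 and 70 in TOM negative libraries. The groups overlapped, at 1.64 ± 0.966 and 2.8 ± 1.71 CPM (SD, n = 3), and the log2 fold change of -0.77 ± 0.937 (SE) did not pass (edgeR adjusted p = 0.607). After AAV-Cre no library had a Rax count, and after AAV-GFP the counts were 20, 12 and 16, or 1.01 ± 0.13 CPM. Against the floor of 3 counts over the group, Rax was at least 15.3-fold lower after AAV-Cre, or 9.9-fold without AAV-Cre replicate 1. The edgeR adjusted p was 0.0583, so that this difference did not pass. DESeq2 gave 0.0171, and the adjusted p reached 0.425 over the alternatives that gave one. With counts in the AAV-GFP libraries alone of this pair, Rax could only come out lower after AAV-Cre. Exons of the antisense gene Raxos1 overlap 27.4% of the Rax exon bases, and Raxos1 had 0 counts in all libraries.

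Dio2 and Crym act on thyroid hormone inside the cell. Dio2 encodes the deiodinase that converts thyroxine to its active form, and Crym encodes mu-crystallin, which binds the active hormone. Dio2 (chr12:90691326-90705812, minus strand) had 4.21, 0.443 and 6.52 CPM in TOM positive and 2.06, 4.45 and 0.825 CPM in TOM negative libraries. After AAV-Cre it had 9.97, 1.42 and 0 CPM, and after AAV-GFP 0.672, 0.507 and 2.67 CPM. Dio2 varied more within groups than between them. Its log2 fold changes were 0.60 ± 1.11 (SE, edgeR adjusted p = 0.741) for TOM positive against TOM negative and 1.56 ± 1.72 (adjusted p = 0.698) for AAV-Cre against AAV-GFP. The sign turned without TOM positive replicate 3 in the first and without AAV-Cre replicate 1 in the second.

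Crym (chr7:119785603-119801334, minus strand) was counted in 1 TOM positive library. The counts were 76, 0 and 0 in TOM positive and 0, 0 and 8 in TOM negative libraries, too few for a test. In PVH cells they were 79, 35 and 0 with AAV-Cre, against 0, 5 and 27 with AAV-GFP. The groups overlapped, with 2.43 ± 2.46 and 0.754 ± 1.01 CPM (SD, n = 3), and the log2 fold change of 1.69 ± 1.96 (SE) did not pass (edgeR adjusted p = 0.713). With a library left out it ranged from 0.65, without AAV-Cre replicate 1, to 3.81, without AAV-GFP replicate 3.

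Gpr50, a relative of the melatonin receptors that is counted among the markers of tanycytes, lies at chrX:70707273-70712863 on the plus strand. Its counts were 0, 0 and 0 in TOM positive and 20, 0 and 58 in TOM negative libraries. With AAV-Cre they were 0, 0 and 65, against 0, 26 and 7 with AAV-GFP. Gpr50 was present in some libraries of a group and absent from others, and it passed the filter on low counts in neither comparison. The summed counts put it at least 32.9-fold lower in TOM positive than in TOM negative cells, or 13-fold without TOM negative replicate 3 and 20.4-fold to 20.7-fold without TOM positive replicate 3 or 2. These bounds cover counting error only, and the groups overlapped, since TOM negative replicate 2 also had 0 counts. Gpr50 did not pass in edgeR without the filter (adjusted p = 0.115) or in DESeq2 (0.057). All 65 counts after AAV-Cre came from replicate 3. Of the melatonin receptors proper, Mtnr1a and Mtnr1b had 0 counts in all 12 libraries.

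Col23a1 encodes a transmembrane collagen and lies at chr11:51180747-51474745 on the plus strand. TOM positive libraries had 7.95, 16 and 8.78 CPM and TOM negative libraries 8, 8.96 and 11.6 CPM. These overlapped, at 10.9 ± 4.45 and 9.5 ± 1.84 CPM (SD, n = 3), and the log2 fold change was 0.20 ± 0.473 (SE, edgeR adjusted p = 0.799), turning sign without TOM positive replicate 2. After AAV-Cre Col23a1 had 12.8, 0.407 and 0 CPM and after AAV-GFP 8.84, 63 and 3.8 CPM. Both groups had 1 library far above the rest, and the log2 fold change of -2.51 ± 1.81 (SE) did not pass (edgeR adjusted p = 0.521). It was -6.90 without AAV-Cre replicate 1 and -0.53 without AAV-GFP replicate 2.

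Further tanycyte genes outside the 9 did not move as one group. Of 16 such genes, 8 were tested in the TOM comparison, of which 2 rose and 1 fell in TOM positive cells, with a median log2 fold change of 0.899. For this list and those below, the shares over all genes tested were 10.4% higher and 13.4% lower in TOM positive cells. After AAV-Cre they were 0.63% higher and 1.97% lower. Nothing particular to a list is read from a count near these shares. Ptn, a secreted growth factor also made by other glia, rose from 711 ± 68.4 to 1540 ± 79.6 CPM (log2 fold change 1.11 ± 0.131, SE, edgeR adjusted p = 0.00168). Cd59a, an inhibitor of complement, rose by 1.14 ± 0.315 on the log2 scale (adjusted p = 0.0376), passing in 2 of 6 fits with a library left out. Slco1c1, a thyroid hormone transporter, fell from 229 ± 38.5 to 93.4 ± 30.3 CPM (adjusted p = 0.012). In the AAV comparison 13 of the 16 were tested and edgeR called 0, with 2 at an unadjusted p below 0.05, 2 called by DESeq2 and 0 by voom. The median log2 fold change was -0.18 there, close to the -0.16 of all genes. Scn7a, a sodium channel of glia around the ventricles, had no count with AAV-Cre, against 247, 57 and 34 with AAV-GFP, at least 108-fold lower (adjusted p = 0.051). The bound was 49.1-fold without AAV-GFP replicate 1 and 69.7-fold without AAV-Cre replicate 1. Scn7a entered the AAV test only through the AAV-GFP libraries and so could only come out lower after AAV-Cre. It was at 0 in all TOM libraries.

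The thyroid hormone genes included transporters, deiodinases, receptors and targets. Of 14 listed, 10 were tested in the TOM comparison, where 1 rose and 3 fell in TOM positive cells. Over all genes tested, 10.4% rose and 13.4% fell. The amino acid and thyroid hormone transporters Slc7a8 (log2 fold change -5.12 ± 1.24, SE, edgeR adjusted p = 0.0234) and Slc7a5 (-2.03 ± 0.432, adjusted p = 0.015) fell along with Slco1c1. Slc7a8 passed in 2 of 6 fits with a library left out, and Slc7a5 and Slco1c1 in 5 each. Without TOM negative replicate 2 the number of genes that fell was 0. Klf9, a transcription factor induced by thyroid hormone, rose from 135 ± 22.3 to 281 ± 19.7 CPM (adjusted p = 0.00553). Between the AAV groups 11 were tested and edgeR called 0, with 2 at an unadjusted p below 0.05, 1 called by DESeq2 and 0 by voom.

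Chemerin acts through the receptor Cmklr1 and binds Ccrl2, which presents it to other cells. Ccrl2 fell from 82.6 ± 12.1 CPM in TOM negative to 12.2 ± 2.77 CPM in TOM positive cells (log2 fold change -2.76 ± 0.266, SE, edgeR adjusted p = 0.000743). Cmklr1 had 61, 61 and 51 counts in TOM negative libraries and 0 in all 3 TOM positive ones, at least 73-fold lower (adjusted p = 0.00899), or 45.8-fold and 45.2-fold without TOM positive replicates 2 and 3. It entered the test only through the TOM negative libraries and so had to differ. In the AAV comparison the direction of Ccrl2 was the opposite of that of Rarres2. Ccrl2 rose from 18.8 ± 1.38 CPM after AAV-GFP to 119 ± 38.1 CPM after AAV-Cre (log2 fold change 2.65 ± 0.321, SE, adjusted p = 0.0202), and it passed in 3 of 6 fits with a library left out. Microglia are known to express Cmklr1 and Ccrl2. Of 10 microglial genes, 10 fell in TOM positive cells, with a median log2 fold change of -5.38. After AAV-Cre, Csf1r, the microglial growth factor receptor, was the 1 microglial gene that passed, higher after AAV-Cre, and it passed in none of the 6 fits with a library left out. The summed microglial level was 4710 to 9140 CPM after AAV-Cre and 2560 to 4160 CPM after AAV-GFP, and the part of microglial RNA in the receptor values was not tested.

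Of 16 genes of the retinoic acid pathway, which includes Rarres2, 11 were tested in the TOM comparison. In TOM positive cells 3 fell, Rarres2, Stra6 and Rxrb, where 13.4% of all genes tested fell. Nothing particular to the pathway is read from this count. Stra6, which carries vitamin A into cells, had 124, 199 and 353 counts in TOM negative libraries and 0 in TOM positive ones, at least 285-fold lower (edgeR adjusted p = 0.00388), or 179-fold and 176-fold without TOM positive replicates 2 and 3. Like Nes, it entered the test only through the TOM negative libraries and so had to differ. The retinoid X receptor Rxrb fell by 1.59 ± 0.254 on the log2 scale (SE, adjusted p = 0.00551). After AAV-Cre 2 of 14 tested genes fell, Rarres2 and Stra6. Stra6 had no count with AAV-Cre, against 104, 56 and 57 with AAV-GFP, at least 69.3-fold lower (adjusted p = 0.0436), or 44.8-fold without AAV-Cre replicate 1. That call held in 1 of 6 fits with a library left out, and here too Stra6 entered the test only through the group where it was counted.

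Of 12 intermediate filament genes, 10 were tested in the TOM comparison, with Vim and Nes lower and the neuronal filament genes Nefl (log2 fold change 3.40 ± 0.80, SE, edgeR adjusted p = 0.0213) and Ina (1.85 ± 0.545, adjusted p = 0.0467) higher in TOM positive cells. Nefl passed in 3 and Ina in 1 of 6 fits with a library left out. After AAV-Cre, Vim was the 1 gene of 11 tested that passed. Gfap, the filament gene of astrocytes, did not pass in either (log2 fold changes -0.31 and 0.29, adjusted p = 0.517 and 0.808). Among 15 genes of radial glia and stem cells, 4 fell in TOM positive cells, Vim, Nes and the Notch targets Hes1 (-1.65 ± 0.264, adjusted p = 0.00547) and Hes5 (-1.31 ± 0.308, adjusted p = 0.0213). That count was 1 without TOM negative replicate 2, 2 without TOM negative replicate 1 or 3, and 5 without TOM positive replicate 3. Over all genes tested, 13.4% fell in TOM positive cells. After AAV-Cre 1 of the 15 fell, Vim itself.

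Of 13 genes of ciliated ependymal cells, 13 were tested in the AAV comparison and 9 fell after AAV-Cre, with a median log2 fold change of -6.97. Tmem212 had 0, 6 and 6 counts with AAV-Cre, against 8404, 1872 and 3404 with AAV-GFP (log2 fold change -9.93 ± 0.96, SE, edgeR adjusted p = 0.0202). Spag6l, a protein of the motile cilium, was at 0 with AAV-Cre, against 107 ± 79.2 CPM with AAV-GFP, at least 1780-fold lower (adjusted p = 0.0202). The bound was 930-fold without AAV-GFP replicate 1 and 1150-fold without AAV-Cre replicate 1, and Spag6l passed in 3 of 6 fits with a library left out. Spag6l and Tmem212 entered the test only through the AAV-GFP libraries, as did Ak7, Hydin and Meig1 among the 9. These genes had fewer than 10 counts in every AAV-Cre library and so could only come out lower. The summed level of the 13 genes was 6.48 to 25.7 CPM after AAV-Cre and 949 to 1880 CPM after AAV-GFP. Without AAV-GFP replicate 1 or 3 edgeR called 0 of them, without AAV-GFP replicate 2 it called 1, and without AAV-Cre replicate 2 it called 3. In the TOM comparison 1 of 10 tested fell, Spag6l. It had 0 counts in TOM positive libraries, entered that test only through the TOM negative libraries and so had to differ. Of the 10, 9 had a negative log2 fold change, while Foxj1 had a positive one (0.53, edgeR adjusted p = 0.546). The sum of the list was 23.8 to 32.8 CPM in TOM positive and 50.8 to 87.6 CPM in TOM negative libraries.

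The sum over 10 endothelial genes was 24.7 to 200 CPM in TOM positive and 766 to 940 CPM in TOM negative libraries, and 25.4 to 61.9 CPM after AAV-Cre and 440 to 591 CPM after AAV-GFP. In the TOM comparison 4 of 10 passed as lower, which became 0 without TOM negative replicate 2 and 1 without TOM positive replicate 1, TOM negative replicate 1 or TOM negative replicate 3. Of the 10, 9 had a negative log2 fold change, while Tek had a positive one (0.55, edgeR adjusted p = 0.84). Between the AAV groups 1 of 9 tested passed, Emcn, in the lower direction, and it passed in 0 of 6 fits with a library left out. Acta2, a smooth muscle actin, had no count with AAV-Cre, against 1047, 528 and 575 with AAV-GFP. It was at least 686-fold lower (edgeR adjusted p = 0.0202), or 443-fold without AAV-Cre replicate 1. Of 9 mural genes 5 were tested, and Acta2 was the 1 that passed. Of the 5, 3 had a negative log2 fold change, while Pdgfrb (0.24) and Kcnj8 (0.68) had a positive one. Tagln, another mural gene, had counts of 1, 0 and 0 with AAV-Cre and 0, 1 and 1 with AAV-GFP. The choroid plexus gene Folr1 was likewise at 0 after AAV-Cre, with 312, 155 and 216 counts after AAV-GFP (adjusted p = 0.0248). Of 9 choroid plexus genes 4 were tested, and Folr1 was the 1 that passed. The log2 fold change was negative for 3 of the 4 and positive for Otx2 (0.56, edgeR adjusted p = 0.791). Acta2 and Folr1 each passed in 3 of 6 fits with a library left out, and both entered the test only through the AAV-GFP libraries, as did Emcn. The part of ependymal, endothelial, mural and choroid plexus RNA in the values of Rarres2, Vim and Nes was not tested.

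Among the other brain cell lists, 10 of 10 oligodendrocyte genes, 5 of 8 genes of their precursors and 5 of 12 neuronal genes tested rose in TOM positive cells, and 5 of 10 astrocyte genes fell. The astrocyte count ranged from 1 (TOM positive replicate 3 left out, or replicate 2 of the TOM negative libraries) to 7 (TOM positive replicate 2 left out). Neuronal genes summed to 409 to 542 CPM in TOM positive and 75.3 to 93.8 CPM in TOM negative libraries, whereas the oligodendrocyte genes summed to 82100 to 92800 and 19900 to 26300 CPM. After AAV-Cre 3 of 10 oligodendrocyte genes rose, and 0 in any fit with a library left out. Of 13 neuronal and 10 astrocyte genes, edgeR called 0 between the AAV groups, with 1 of each at an unadjusted p below 0.05 and 0 called by DESeq2 or voom. The neuronal sum was 2230 to 2590 CPM after AAV-Cre and 1220 to 2390 CPM after AAV-GFP.

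**Figure D4:**
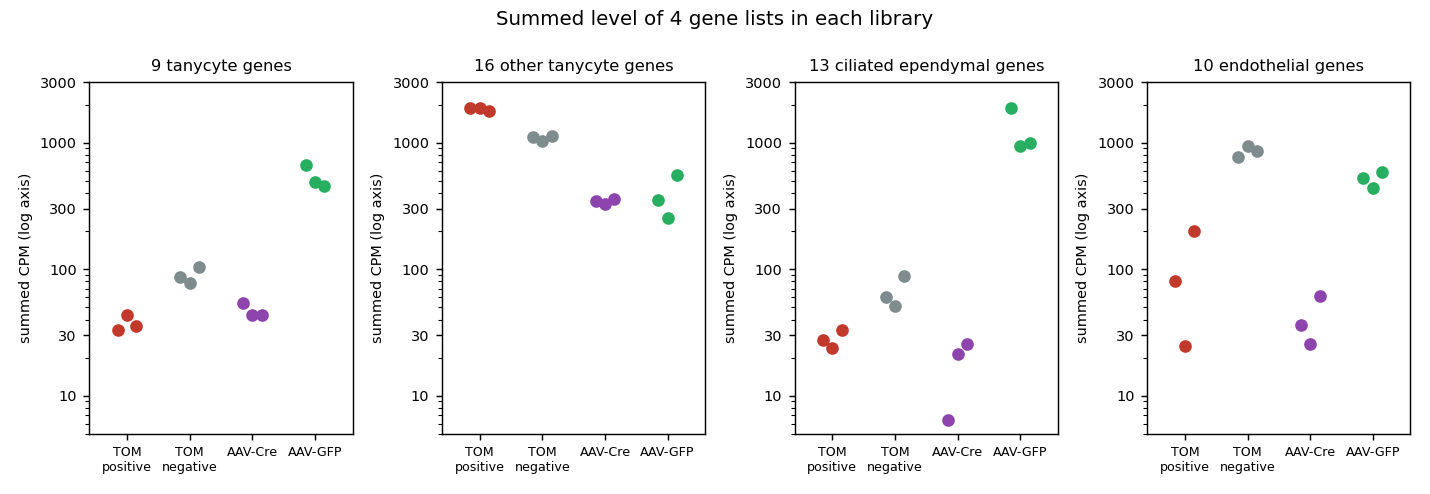
Summed CPM (vertical axis, log scale) of the 9 tanycyte genes, 16 other tanycyte genes, 13 ciliated ependymal genes and 10 endothelial genes in each library, by group (horizontal axis). Each point is 1 library, scaled within its own comparison. The 9 genes and the ciliated ependymal genes are highest in the AAV-GFP libraries. The endothelial genes are low in TOM positive and AAV-Cre libraries. The sum of the other tanycyte genes is highest in TOM positive libraries. Ptn alone makes up most of that sum there, at a mean of 1540 CPM, against 711 for TOM negative cells. The order of this sum thus mainly follows Ptn and is not read as a property of the list.

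The genes whose levels over the 12 libraries were most like those of each member were sought among 11102 candidates with a mean of at least 5 CPM, by Pearson's r of log2 CPM. These are descriptions over libraries that share group, depth and experiment. Rarres2 was most like Crygn (r = 0.987), Cfap299 (0.985) and Spag6l (0.98), the last of them in the ciliated ependymal list. Vim was most like Pcp4l1 (0.935), Crip2 (0.929) and Copz2 (0.907). Nes, with many zeros, was most like Dyrk3 (0.984), Chaf1a (0.97) and Lrrc74b (0.944). Rax was most like Rdh14 (0.934), Slc2a4 (0.927) and Sem1 (0.927). Col23a1 was most like Dchs1 (0.915), Steap3 (0.887) and Mthfd2l (0.88), and Dio2 was most like Ptar1 (0.878), Dph2 (0.851) and Slc35a1 (0.841). Mia, Gpr50 and Crym had too few libraries with 10 counts for this.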

How the data were processed

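Counts were deposited as whole numbers of reads per gene symbol, not normalized, in 2 joint tables, and the 6 files of single AAV libraries held the same values. Per the submitters' processing notes the steps were FastQC, Trim Galore, STAR and featureCounts on mm10. Per the file headers of the AAV files, read pairs were counted by the authors with featureCounts 2.0.1 by gene name on GENCODE vM30, with no strand option. That annotation belongs to a later assembly than mm10, and coordinates are those in the files. For the TOM table, which lacks a header, the counting is not stated in the labels or the file. Its TPM used the same exon lengths.

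For each comparison, edgeR 4.0.16 (R 4.3.3) was run on its 6 libraries alone, with TMM scaling, filterByExpr (minimum count 10), a two-sided quasi-likelihood test and Benjamini-Hochberg adjustment over all genes tested, with a threshold of 0.05. The SE was derived from the F statistic. Folds against a group at 0 counts are bounds from a floor of 3 counts over the group, and ratios of summed counts have exact (Clopper-Pearson) 95% intervals. PCR copies are counted as reads, so both cover counting error only. Replicates differed beyond sampling noise (chi-square per degree of freedom at least 47.7).

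Of each of 18 gene lists, all 9 members, up to 4 other genes with the smallest p, and genes counted in few words as called could be named, as could the 3 genes most alike each member with 10 counts in at least 6 libraries (log2 CPM, prior count 2). Members and lists were chosen with earlier results of these data known. Alternatives were RLE size factors, no scaling, no filter, a replicate block, mitochondrially encoded genes removed, a 1.5-fold test, DESeq2 1.42.0, voom with quality weights (limma 3.58.1) and each library left out. Removal of ciliated ependymal genes and thinning to equal depth were added after seeing the data. The fit was tested on simulated data.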

Additional observations from a re-analysis of the deposited data

How the results depend on the processing

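In the TOM comparison the 3635 genes called (2046 lower in TOM positive cells) became 2177 (1305 lower) in a test against a 1.5-fold change, 5485 with DESeq2 and 1511 to 3547 with a library left out. The tanycyte genes called, all lower (3), became 1 to 3 with a library left out, with 1 without TOM negative replicate 2 or 3. Between the AAV groups the 400 genes called (303 lower after AAV-Cre, 97 higher) became 712 without the count filter, 245 in the 1.5-fold test, 1883 with DESeq2 (1300 lower, 583 higher) and 0 to 296 with a library left out. They became 0 without AAV-GFP replicate 1 or 3, 2 without AAV-GFP replicate 2 and 122 without AAV-Cre replicate 2. The tanycyte genes called there, all lower (2), became 1 in the 1.5-fold test, 4 with DESeq2 and 0 to 2 with a library left out. The 4 included Rax and Mia, which had counts in the AAV-GFP libraries alone and so could only come out lower. Removing the ciliated ependymal genes or thinning to equal depth left the tanycyte genes called at 3 and 2.

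Signs turned for genes that did not pass. With a library left out, the log2 fold change of Col23a1 in the TOM comparison ranged from -0.19 (without TOM positive replicate 2, edgeR adjusted p = 0.818) to 0.38, and that of Dio2 from -0.081 (without TOM positive replicate 3, adjusted p = 0.972) to 1.36. Dio2 between the AAV groups ranged from -0.85 (without AAV-Cre replicate 1, edgeR adjusted p = 0.829) to 2.76 and was -1.42 with voom (adjusted p = 0.703). The causes were not tested. Low counts limit what can be said of Mia, Gpr50 and Crym.

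The replicate numbers did not pair the libraries, with correlations of same-numbered deviations of -0.0308, -0.0142 and 0.0244 in the TOM comparison and -0.0696, -0.07 and -0.0637 between the AAV groups. With the replicate number as a block, edgeR called 1987 genes (899 higher, 1088 lower) in the TOM comparison, where Nes no longer passed (adjusted p = 0.0882). Between the AAV groups the block left 0 genes and 0 tanycyte genes called, though 3 tanycyte genes had an unadjusted p below 0.05. Rarres2 had an adjusted p of 0.11 there with edgeR and Vim one of 0.149.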
